A study of Homo sapiens with 6 samples.

Results

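The genes described here encode the proteasome, its activators and its assembly factors. They were the protein-coding genes of the expression table named PSMA, PSMB, PSMC, PSMD, PSME, PSMF or PSMG followed by a number, which gave 46 genes of 35424 listed features. Of the 46, 5 are the genes of the inducible forms, PSMB8, PSMB9, PSMB10, PSME1 and PSME2, and 41 are the remaining subunits and factors. PSMA8 and PSMB11, core subunits of testis and thymus, had no row and were not analysed here.

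The samples were THP-1 cells, a human monocytic leukaemia line labelled wild type, either treated with PMA (phorbol 12-myristate 13-acetate, a protein kinase C activator that drives these cells towards macrophages) or untreated, with 3 libraries in each group. No source used here gives the dose or duration of PMA for these libraries. The study describes the RNA-seq replicates as independent biological experiments, while the sample labels name no culture or day. One cell line is one genetic background. Poly(A) RNA was sequenced as read pairs, and the libraries held 64361886 to 65698834 estimated counts with PMA and 61547700 to 88227830 without.

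The proteasome is the barrel-shaped protease that degrades ubiquitin-tagged proteins. Its core particle stacks outer rings of alpha subunits on inner rings of beta subunits, of which PSMB5, PSMB6 and PSMB7 carry the active sites in most cells. Under interferon, and constitutively in many immune cells, PSMB8, PSMB9 and PSMB10 take the places of PSMB5, PSMB6 and PSMB7 to form the immunoproteasome, and PSME1 and PSME2 form the PA28 cap, both known for shaping the peptides shown on MHC class I. The regulatory particle binds ubiquitin chains through its lid and base, and unfolds the substrate with the ATPases of the base.

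Interferon-responsive factors read GAAA repeats, so the RefSeq promoter windows of the members (GRCh38.p14, 250 bases before to 50 after each start site) were searched for GAAANNGAA on both strands. Matches stood in 4 of the 5 inducible genes, against 4 of the 35 other members with a window and 9.86% of all 27303 genes with one. PSMB4, PSMG4, PSMC2 and PSMA4 were the 4 others. The stretches below hold the matches of the inducible genes, and of TAP1, the peptide transporter gene that starts 488 bases from PSMB9 and runs the other way. Each is 30 bases on the strand of its gene, 5′ to 3′, with capitals on GAAANNGAA or on its reverse complement.
PSMB8: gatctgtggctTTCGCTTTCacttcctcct
PSMB10: agggtaaaggcGAAAGCGAAagcaggaagt
PSME1: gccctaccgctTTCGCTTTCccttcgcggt
PSME2: acctggggagtGAAAGCGAAagcccgggcg
TAP1: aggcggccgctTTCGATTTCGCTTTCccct
The PSMB8 stretch lies at chr6:32844032-32844061 (minus strand) at one of its 2 start sites in RefSeq, and that of PSMB10 at chr16:67936853-67936882 (minus). The PSME1 stretch is at chr14:24136189-24136218 (plus) and the PSME2 stretch at chr14:24146620-24146649 (minus). In PSMB10 and PSME2 the match begins 21 and 28 bases before the start site. The window of PSMB9 itself held no match. The TAP1 stretch, at chr6:32853819-32853848 (minus), carried 2 overlapping matches, and the nearer of them ended 355 bases before the PSMB9 start site. These are letter matches, and no binding was measured here.

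NFE2L1 (NRF1), the factor that raises proteasome gene transcription when proteasome activity is short, reads antioxidant-type elements. TGACNNNGC, searched in the same way, stood in 15 of the 40 members with a window (37.5%), against 16.1% of all genes with one. Among them were 9 of the 27 members with a window that were lower with PMA (33.3%). Of the 35 members with a window other than the inducible genes, 12 had a match (34.3%), a similar share. The 15 also held 3 of the 5 inducible genes, PSMB9, PSME1 and PSME2. The stretches of PSMD3 and PSMG1 are shown with that of PSMB9, with capitals on the match on either strand.
PSMD3: ttcccctttgtTGACTCGGCcatcggcctg
PSMG1: ggcccagggcaTGACAGCGCgggcgggcgg
PSMB9: agggcggggctGCCTCGTCActtgtctcgg
The PSMD3 stretch is at chr17:39980759-39980788 (plus), the PSMG1 stretch at chr21:39183616-39183645 (minus) and the PSMB9 stretch at chr6:32854033-32854062 (plus). No member had a match of one motif overlapping a match of the other.

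With PMA, most proteasome genes were lower while none of the inducible genes was called lower in the unblocked fit. With the replicate number as a block, 1 inducible gene, PSMB10, was called lower as well (adjusted p = 0.033), and PSMB8 and PSME1 were called higher. Of the 45 members tested, 31 were lower (edgeR's quasi-likelihood test, Benjamini-Hochberg adjusted p under 0.05), against 32.8% of the 12947 genes tested, and 2, PSMB9 and PSME2, were higher, against 32.7% of all genes. All 31 lower genes were among the 40 tested members other than the inducible genes, and none of those 40 was higher. Their median log2 fold change was −0.59, that of the 5 inducible genes was 0.48 and that of all tested genes was −0.01. In bulk RNA, a smaller share of cells of one type and less RNA per cell cannot be told apart. The member left out was PSMG4, a core assembly chaperone, which reached 1 FPKM (fragments scaled to exon length and library size) in 1 library, short of the 3 that the test required.

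Together the 45 genes summed to 5498, 4567 and 4482 CPM (library-scaled counts, with TMM factors) with PMA, against 7320, 6794 and 6494 in untreated cells. The inducible genes alone summed to 699, 496 and 467 CPM with PMA, against 495, 407 and 398 in untreated cells. Replicate 1 was the highest of its group in both sums, and it stood apart in both groups: 27 members had their highest PMA value and their highest untreated value in replicate 1, against 27.8% of all tested genes. In every replicate number the sum of all members was lower with PMA and that of the inducible genes was higher.

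**Figure D1:**
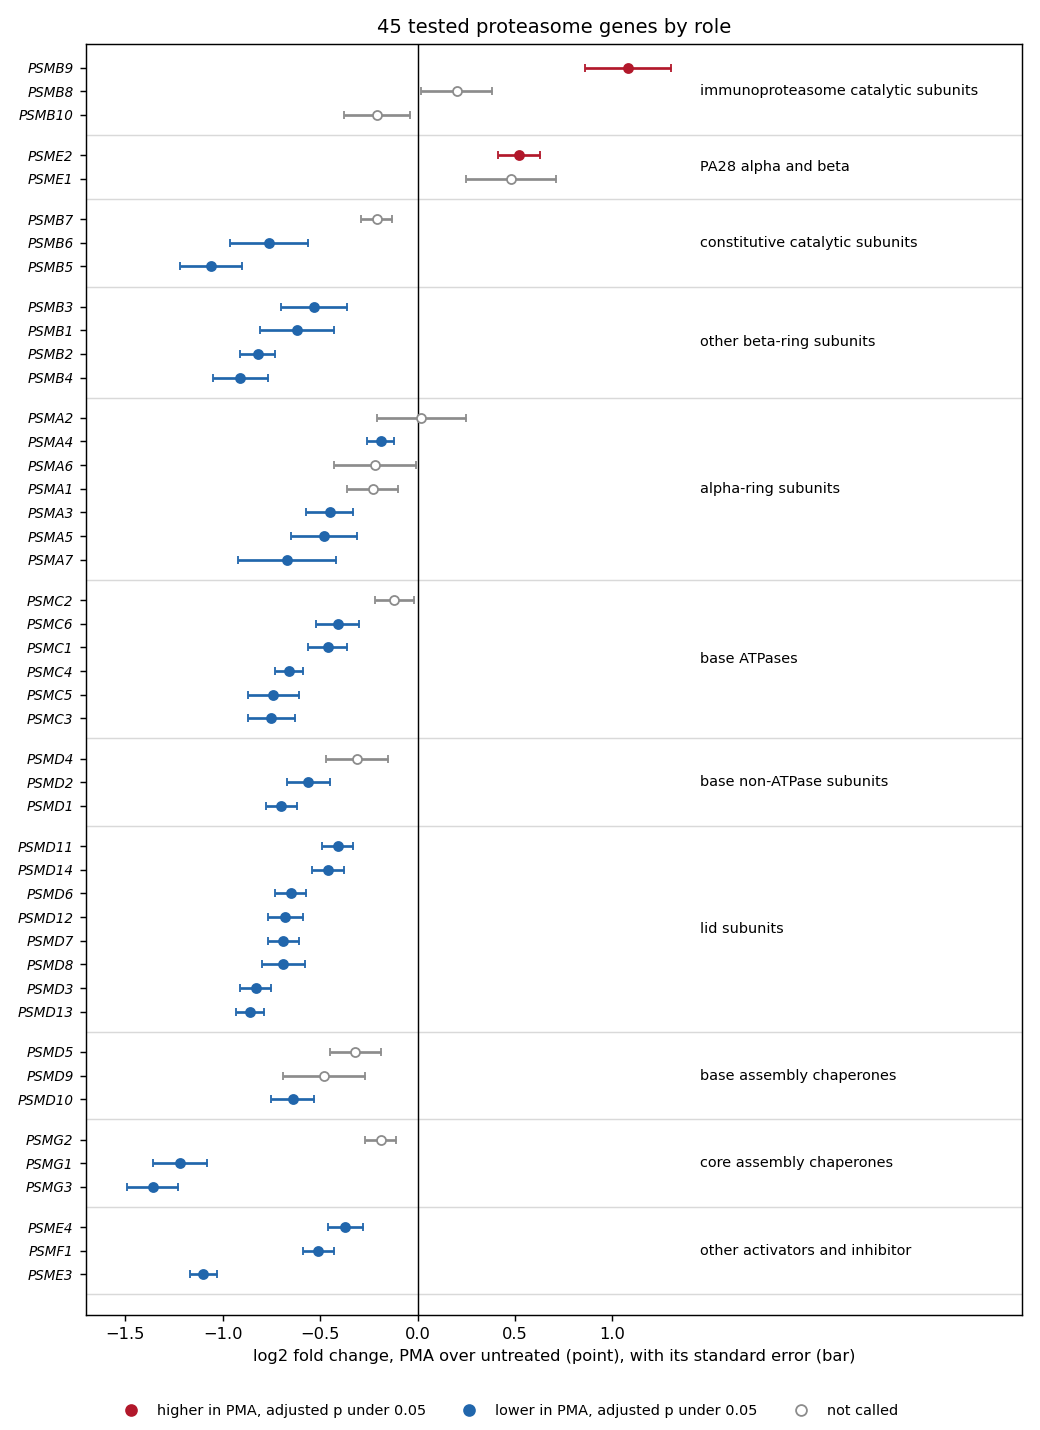
Log2 fold change of each of the 45 tested members, PMA over untreated, with its standard error, grouped by role. PSMB9 and PSME2 are the 2 genes called higher, and the 31 called lower comprise 10 constitutive core subunits, 15 regulatory particle subunits, 3 assembly factors, PSME3, PSME4 and PSMF1.

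Among the immunoproteasome catalytic subunits, PSMB9 (β1i, which replaces PSMB6) had 110, 65.2 and 64.5 CPM with PMA, against 42.3, 31.7 and 39.3 CPM in untreated cells. All PMA libraries were above all untreated ones, and PMA replicate 1 was the highest. The fold change was 2.11 (log2 1.08 ± 0.22 SE, edgeR adjusted p = 0.00282), and leaving out both replicates 1 gave log2 0.88 (adjusted p = 0.000505). In the table, PSMB9 spans chr6:32844136-32859851 on the plus strand (hg38), an interval that contains TAP1 on the minus strand. TAP1 held 354, 325 and 321 CPM with PMA, against 80.3, 80.1 and 68.4 CPM in untreated cells. The exons of the genes share 0 bases in GENCODE v44, TAP1 lying within PSMB9 introns, while PSMB9 shares 174 exon bases with PSMB8-AS1, which was not called (log2 0.18, edgeR adjusted p = 0.234). Use of strand is not stated, so reads of intronic origin cannot be told apart between the overlapping genes, and their part in the PSMB9 change was not tested.

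PSMB8 (β5i, which replaces PSMB5) had 231, 158 and 154 CPM with PMA, against 185, 151 and 137 CPM in untreated cells. The groups overlapped, replicate 1 being the highest of each. The log2 fold change was 0.20 ± 0.18 (SE) and did not pass the test (edgeR adjusted p = 0.338). With the replicate number as a block, PSMB8 was called higher (log2 0.19, adjusted p = 0.0413), and without PMA replicate 1 its log2 fold change was −0.01.

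PSMB10 (β2i, which replaces PSMB7) had 90.5, 61.4 and 60 CPM with PMA, against 92, 77.1 and 75.9 CPM in untreated cells. It alone of the inducible genes had a negative fold change, with PMA replicate 1 inside the untreated range. The log2 fold change was −0.21 ± 0.17 (SE) and did not pass the test (edgeR adjusted p = 0.296). It was called lower with the replicate block (log2 −0.23, adjusted p = 0.033), without PMA replicate 1 (log2 −0.43, adjusted p = 0.00686) and without both replicates 1 (log2 −0.32, adjusted p = 0.00333). PSMB10 shares 640 exon bases, 39.4% of its exon length, with a gene on the same strand that the table gives as ENSG00000261884, and the part of those reads was not tested.

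Of the PA28 cap, PSME2 (PA28β) had 178, 153 and 134 CPM with PMA, against 112, 105 and 106 CPM in untreated cells. All PMA libraries were above all untreated ones, with a fold change of 1.44 (log2 0.52 ± 0.11 SE, edgeR adjusted p = 0.00319). PSME2 shares 216 exon bases, 6.03% of its exon length, with RNF31 on the other strand, a linear ubiquitin ligase subunit gene that was itself higher (log2 0.93, edgeR adjusted p = 0.00779), and the part of those reads was not tested.

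PSME1 (PA28α) had 89.4, 58.4 and 54.4 CPM with PMA, against 63.2, 42.4 and 39.7 CPM in untreated cells. Untreated replicate 1 lay above PMA replicates 2 and 3, so the groups overlapped. The log2 fold change was 0.48 ± 0.23 (SE, edgeR adjusted p = 0.105). It was 0.22 without PMA replicate 1 and 0.72 without untreated replicate 1, where it was called (adjusted p = 0.0192). PSME1 was called higher with the replicate block (log2 0.47, adjusted p = 0.00028), where the differences within replicates 1, 2 and 3 were 0.50, 0.46 and 0.45, and without both replicates 1 (log2 0.47, adjusted p = 0.00142).

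PSME3 (PA28γ), the nuclear relative of these cap proteins, moved the other way. It had 189, 184 and 185 CPM with PMA, against 388, 397 and 414 CPM in untreated cells, with no overlap. The fold change was 0.465 (log2 −1.10 ± 0.07 SE, edgeR adjusted p = 4.85e-06), the smallest adjusted p of any member. It shares 300 exon bases, 5.82% of its exon length, with BECN1 on the other strand, which was not called (log2 −0.15, adjusted p = 0.102). The other caps were lower by less, PSME4 (PA200) with log2 −0.37 and PSMF1 (PI31, which inhibits the proteasome in vitro) with log2 −0.51, both called.

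**Figure D2:**
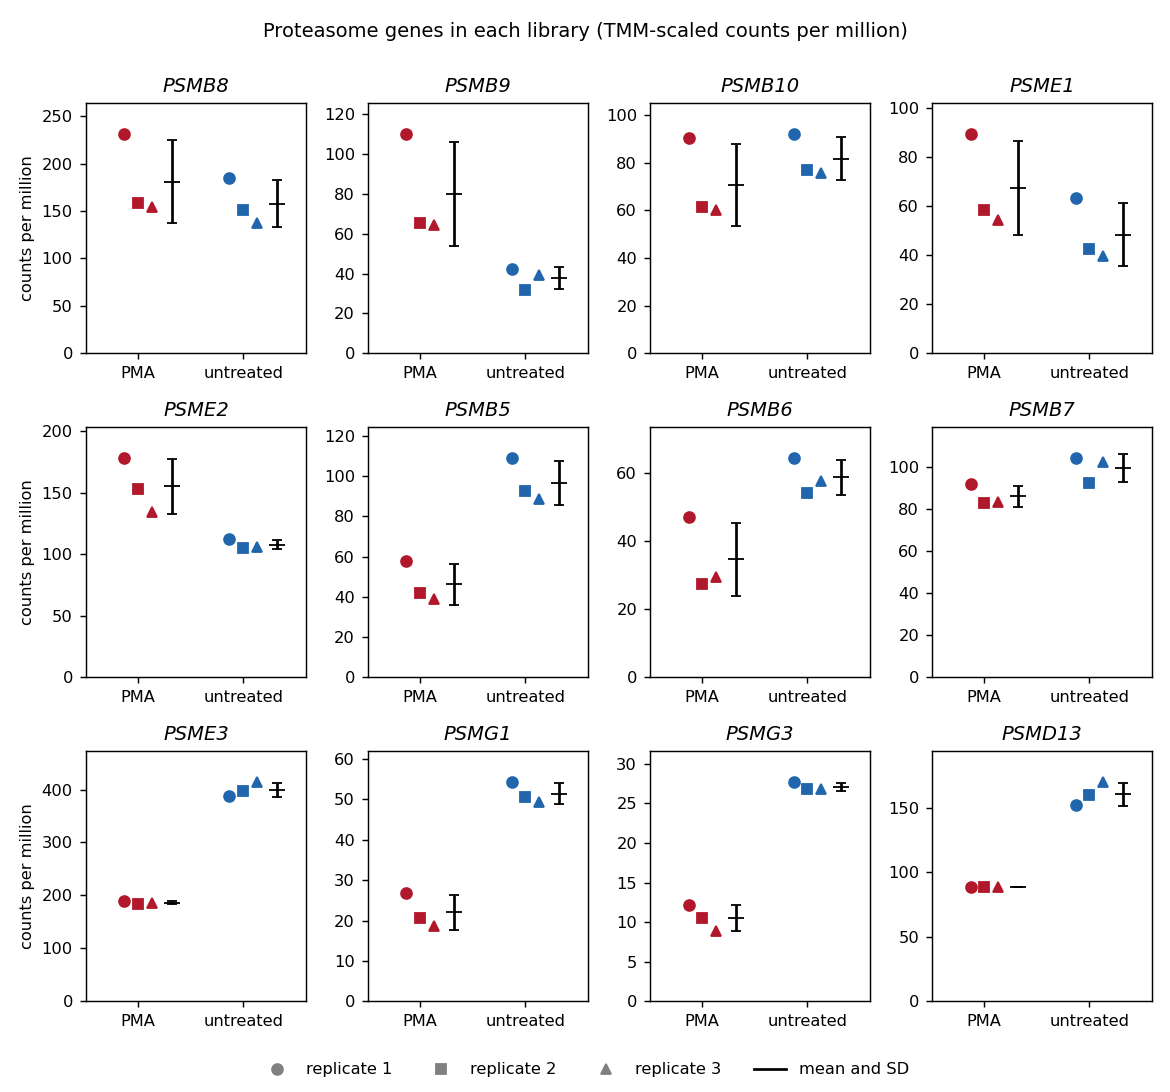
CPM of 12 members in each library, PMA left of untreated, with a marker for each replicate number and the mean and SD (n = 3). PSMB9 and PSME2 have every PMA library above every untreated one, PSMB5, PSMB6, PSMB7, PSME3, PSMG1, PSMG3 and PSMD13 have every PMA library below, and PSMB8, PSMB10 and PSME1 overlap.

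Of the constitutive catalytic subunits, PSMB5 (β5, the chymotrypsin-like site) had 58, 42 and 39.1 CPM with PMA, against 109, 92.7 and 88.5 CPM in untreated cells. The groups lay well apart, at a fold of 0.479 (log2 −1.06 ± 0.16 SE, edgeR adjusted p = 0.000559). PSMB6 (β1, the caspase-like site) had 46.9, 27.4 and 29.4 CPM with PMA, against 64.3, 54.2 and 57.5 CPM in untreated cells. The groups did not overlap, although PMA replicate 1 approached the untreated libraries (log2 −0.76 ± 0.20 SE, edgeR adjusted p = 0.00957). PSMB7 (β2, the trypsin-like site) had 91.6, 82.6 and 83.2 CPM with PMA, against 104, 92 and 102 CPM in untreated cells. Its difference was small (log2 −0.21 ± 0.08 SE) and did not pass the test in the unblocked fit (edgeR adjusted p = 0.0509), but did with the replicate block (log2 −0.21, adjusted p = 0.0167) and by DESeq2 (log2 −0.34, adjusted p = 0.00344).

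Each inducible subunit was then set against the subunit it replaces, as a per-library ratio of FPKM, which is scaled to gene length. The PSMB8/PSMB5 ratio was 1.78, 1.67 and 1.76 with PMA, against 0.753, 0.724 and 0.69 in untreated cells. The mean log2 ratios were 0.80 ± 0.05 with PMA and −0.47 ± 0.06 in untreated cells (SD, n = 3 each), a change of 2.4-fold (two-sided exact permutation p = 0.1, adjusted over 3 pairs 0.15). The PSMB9/PSMB6 ratio was 1.01, 1.03 and 0.95 with PMA, against 0.285, 0.254 and 0.296 in untreated cells, a change of 3.59-fold (exact permutation p = 0.1, adjusted 0.15). In both pairs all PMA libraries were above all untreated ones, and 0.1 is the smallest p that 3 libraries against 3 allow, so the threshold cannot be reached. The PSMB10/PSMB7 ratio was 1.09, 0.817 and 0.792 with PMA, against 0.976, 0.921 and 0.814 in untreated cells. These overlapped, with a log2 difference of −0.02 (exact permutation p = 0.9, adjusted 0.9).

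PMA replicate 1 was the highest PMA library for PSMB8, PSMB9, PSMB5 and PSMB6 alike, and the ratios of these pairs did not set it apart. With the replicate numbers paired as a block, the log2 differences were 1.24, 1.21 and 1.35 for PSMB8/PSMB5 and 1.83, 2.03 and 1.68 for PSMB9/PSMB6 in replicates 1, 2 and 3. For PSMB10/PSMB7 they were 0.15, −0.17 and −0.04, of mixed sign. For PSMB8/PSMB5 the lower PSMB5 was called and PSMB8 was not in the unblocked fit, whereas for PSMB9/PSMB6 both genes were called, in opposite directions. The level of a ratio depends on the exon length each gene was given, and the lengths implied by FPKM were 1.03 to 1.04 times the union of GENCODE v44 exons for all members. Differences between groups do not depend on it.

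**Figure D3:**
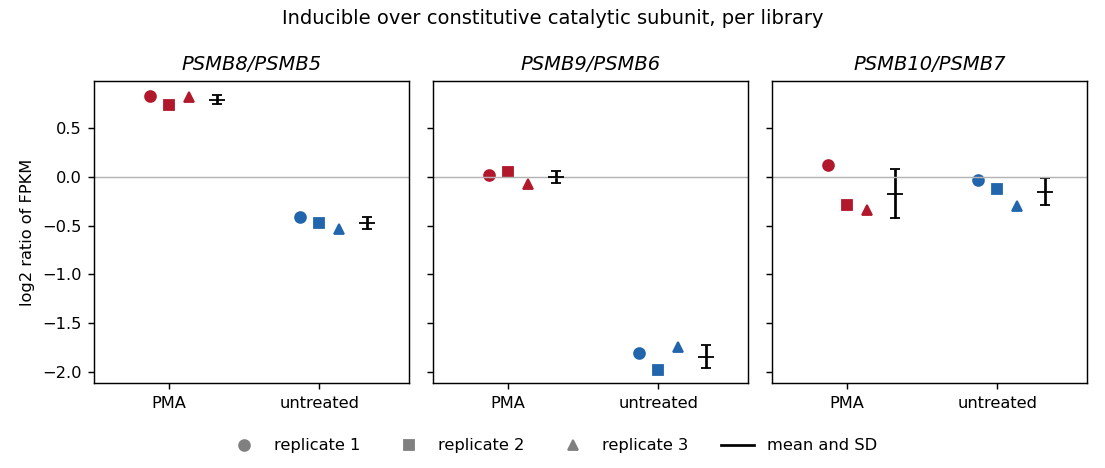
Log2 ratio of FPKM of each inducible catalytic subunit over the constitutive subunit it replaces, PMA left of untreated, with the mean and SD (n = 3). The groups lie apart for PSMB8/PSMB5 and PSMB9/PSMB6 and overlap for PSMB10/PSMB7.

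By FPKM, the order of the members was similar at the top of both groups, with PSMB3, PSMA5, PSMD2 and PSMB4 first. PSMB3, a structural beta subunit, averaged 78.8 ± 14.5 FPKM with PMA and 117 ± 23.9 FPKM in untreated cells (SD, n = 3 each), and PSMB4 averaged 65.2 ± 13.1 FPKM with PMA and 125 ± 8.8 FPKM in untreated cells. With PMA, the means of PSMB3, PSMA5, PSMD2 and PSMB4 lay within the SD of the first. PSMB9 ranked 23 of 46 with PMA, at 22.8 ± 7.34 FPKM, next to PSMB6 at 22.8 ± 7.03 FPKM, against rank 40 in untreated cells, at 11.1 ± 1.54 FPKM. PSME3 ranked 16 with PMA, at 34.5 ± 0.331 FPKM, against rank 7 in untreated cells, at 76 ± 1.44 FPKM. PSMG4 was the lowest in both groups, at 0.565 ± 0.0802 FPKM with PMA and 0.927 ± 0.176 FPKM in untreated cells.

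The other 4 beta-ring subunits, which have no active site, were all lower, against 32.8% of all genes. Their log2 fold changes were between −0.91 and −0.53. The calls of PSMB1 and PSMB3 were lost when PMA replicate 2 (adjusted p = 0.0722 and 0.0715), PMA replicate 3 (0.0756 and 0.0808) or untreated replicate 1 (0.0653 and 0.0721) was left out, and that of PSMB3 also without untreated replicate 2 (0.0524). PSMB4, the largest of these changes, had 179, 129 and 127 CPM with PMA, against 291, 253 and 271 CPM in untreated cells. The groups did not overlap (log2 −0.91 ± 0.14 SE, edgeR adjusted p = 0.000678). Of the 7 alpha-ring subunits, which form the gate and the docking surface, 4 were lower, against 32.8% of all genes. The remaining 3 were not called, and the median log2 fold change of the 7 was −0.23. PSMA7 (log2 −0.67) changed most and PSMA4 (log2 −0.19) least among those called. The call of PSMA4 was lost when any 1 library was left out (adjusted p between 0.0645 and 0.194). Those of PSMA7 and PSMA5 were lost without PMA replicate 2 or 3 or untreated replicate 1 or 2 (adjusted p between 0.0675 and 0.139), and of the called alpha-ring genes PSMA3 kept its call in every fit. PSMA2 was at log2 0.02, with untreated replicate 3 at 44.8 CPM and the other untreated libraries at 83.9 and 87.4 CPM, and its exons share 1445 bases with a readthrough gene on the same strand.

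In the regulatory particle, 15 of 17 subunits were lower and none was higher, against 32.8% and 32.7% of all genes. All 8 lid subunits, which include the deubiquitinase PSMD14, were lower, with log2 fold changes between −0.86 and −0.41. PSMD13, a scaffold subunit of the lid, had 88.6, 88.3 and 88.9 CPM with PMA, against 152, 160 and 170 CPM in untreated cells. The PMA libraries were nearly equal and well below the untreated ones (log2 −0.86 ± 0.07 SE, edgeR adjusted p = 2.63e-05). PSMD3, another scaffold subunit of the lid, had 213, 184 and 191 CPM with PMA, against 348, 360 and 337 CPM in untreated cells. These too did not overlap (log2 −0.83 ± 0.08 SE, edgeR adjusted p = 5.39e-05).

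Of the 6 base ATPases, 5 were lower, against 32.8% of all genes. PSMC3 (log2 −0.75) and PSMC5 (log2 −0.74) fell most, and PSMC2 was not called (log2 −0.12). PSMC5 shares 655 exon bases, 15.3% of its exon length, with FTSJ3 on the other strand, an rRNA processing gene that was lower by more (log2 −1.19), and PSMC1 shares 76.1% with NRDE2, which was not called (log2 −0.04, edgeR adjusted p = 0.744). The part of these shared reads was not tested. Of the 3 other base subunits, the scaffolds PSMD1 (log2 −0.70) and PSMD2 (log2 −0.56) were lower and the ubiquitin receptor PSMD4 was not called.

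The assembly factors of the core held the largest falls. PSMG3 (PAC3), which helps the alpha ring to form, had 12.2, 10.5 and 8.94 CPM with PMA, against 27.7, 26.8 and 26.8 CPM in untreated cells. The groups were far apart, at a fold of 0.389 (log2 −1.36 ± 0.13 SE, edgeR adjusted p = 5.22e-05). PSMG1 (PAC1) had 26.9, 20.6 and 18.6 CPM with PMA, against 54.3, 50.6 and 49.4 CPM in untreated cells. The fold was 0.429 (log2 −1.22 ± 0.14 SE, edgeR adjusted p = 0.000141). PSMG2 (PAC2), its partner in the same heterodimer, was not called. PSMG4, the partner of PSMG3, had 6.09, 7.11 and 5.4 CPM with PMA, against 9.28, 11.8 and 8.54 CPM in untreated cells, and had no test in the filtered fit. Of the chaperones of the base, PSMD10 (gankyrin, log2 −0.64) was lower, and PSMD5 and PSMD9 were not called.

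Together with PSME3 and PSMB5, PSMG3 and PSMG1 made up the members at least 2-fold lower. They were 4 of the 45 tested members, a share close to the 8.38% of all genes tested. Of the 45 tested members, 31 had every PMA library below every untreated one, against 35.2% of tested genes, and 2 had every PMA library above, also against 35.2%. Between libraries of the same number, 41 members were lower with PMA in all 3 numbers (40 of the 45 tested, against 42.7% of tested genes), and 4 were higher in all 3 (against 41.1%). The 4 were PSMB8, PSMB9, PSME1 and PSME2, and PSMA2 was the 1 member of mixed sign. With the replicate block, 39 members were lower (36.7% of all genes) and 4 higher (36.0% of all genes). The block kept all 33 calls and added PSMA1, PSMA6, PSMB7, PSMB10, PSMD4, PSMD5, PSMD9 and PSMG2 as lower. Leaving out both replicates 1 gave 36 lower and 3 higher members, the third being PSME1, against 4566 lower and 4500 higher of the 12947 genes tested.

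**Figure D4:**
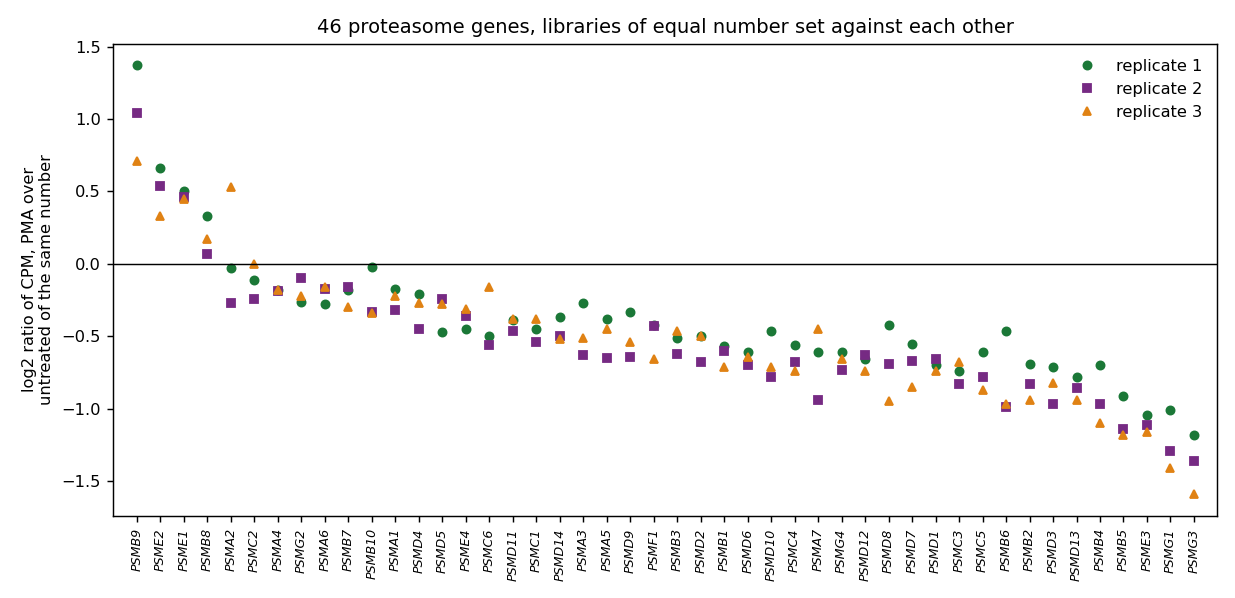
Log2 ratio of CPM, PMA over untreated, between libraries of the same replicate number, for all 46 members in order of their mean. PSMB9, PSME2, PSME1 and PSMB8 are above 0 in all 3 numbers, and 41 members are below 0 in all 3.

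Proteins that work with the proteasome but fall outside the naming rule were taken from a list of 20, all tested, of which 8 were lower and 4 higher, against 32.8% lower and 32.7% higher over all genes. The count of lower genes was 12 with the replicate block, against 36.7% of all genes. It was 14 by DESeq2, against 5476 of 35042 genes. That total includes genes below the filter of the main fit, so these shares are not over like sets of genes. The list holds subunits of the complex as well. The ubiquitin receptor ADRM1 (RPN13) was lower (log2 −0.62, edgeR adjusted p = 0.00145), with 103, 81.5 and 86.8 CPM with PMA, against 135, 130 and 154 CPM in untreated cells. SEM1, a lid subunit, had log2 −0.57 (adjusted p = 0.137, and 0.00539 with the replicate block). POMP, the maturation factor of the core, had log2 −0.28 (adjusted p = 0.103, and 0.0137 with the block). The largest falls were of PAAF1 (fold 0.5), a factor of the ATPase base, and UCHL5 (fold 0.531), the deubiquitinase that binds ADRM1. Of those higher, AKIRIN2 (log2 0.95), needed for proteasome import into the nucleus, ZFAND5 (log2 0.79), a proteasome activator, and MIDN (log2 0.60), which carries proteins to the proteasome without ubiquitin, changed most.

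Of 9 genes of the NRF1 route, 5 were higher and 2 lower, against the same shares of all genes. With a mean of at least 5 FPKM 3 were higher, against 2433 over all genes. There NFE2L3 and MAFF, both higher in the main fit, were not tested. Their means were 4.51 and 2.74 FPKM with PMA, and 3.55 and 0.431 FPKM in untreated cells. NFE2L1 had 280, 266 and 270 CPM with PMA, against 186, 166 and 158 CPM in untreated cells, and rose without overlap (log2 0.68 ± 0.08 SE, edgeR adjusted p = 0.000181). NFE2L2 (NRF2, log2 0.72) and the small MAF partners MAFF (log2 2.69) and MAFG (log2 1.10) were higher too. MAFF was under 1 FPKM in every untreated library (0.384, 0.404 and 0.507) and passed the filter only through the PMA libraries. Without the filter its log2 fold change was 2.55 (edgeR adjusted p = 3.57e-05). NGLY1 (log2 −0.32), the glycanase needed for NRF1 activity, and KEAP1 (log2 −0.38), which holds NRF2 back, were lower. NFE2L1 protein and its processing were not measured.

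Of 4 genes for ubiquitin and its activating enzymes, 2 were lower and none was higher, against 32.8% and 32.7% of all genes. With the replicate block 3 were lower and 1 higher, against 36.7% and 36.0% of all genes. There UBB (log2 −0.21, adjusted p = 0.0215) joined the lower genes and the activating enzyme UBA6 was higher (log2 0.17, adjusted p = 0.0487). The ribosomal fusion gene RPS27A (log2 −1.14, edgeR adjusted p = 0.00106) and the activating enzyme UBA1 (log2 −0.25, adjusted p = 0.0143) fell. RPS27A had 150, 97 and 95.4 CPM with PMA, against 296, 232 and 226 CPM in untreated cells, with no overlap. Leaving out PMA replicate 2 or 3 ended the call of UBA1 (adjusted p = 0.0758 and 0.0543), as did adding them together (adjusted p = 0.0652). With a mean of at least 5 FPKM UBA1 was not called either (log2 −0.13, edgeR adjusted p = 0.126).

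Of 13 genes on the interferon route to immunoproteasome transcription, 11 were higher, against 32.7% of all genes, and 1, IRF8, was lower (log2 −0.32). With a mean of at least 5 FPKM the IRF8 call was lost (log2 −0.20, adjusted p = 0.0542). IRF9 (log2 4.15) and STAT2 (log2 3.61), transcription factors of interferon signalling, changed most. IRF9 was under 1 FPKM in every untreated library (0.509, 0.761 and 0.54) and passed the filter only through the PMA libraries. Without the filter its fold change was 16 (edgeR adjusted p = 2.54e-06). STAT2 had 266, 274 and 290 CPM with PMA, against 21, 24.9 and 22 CPM in untreated cells (edgeR adjusted p = 1.01e-07). IRF1, which binds the promoters of the inducible subunits, had 87, 77 and 82 CPM with PMA, against 26.1, 23.8 and 25.6 CPM in untreated cells (log2 1.71, edgeR adjusted p = 1.76e-06). IRF2 (log2 2.23), a factor that binds the same elements, and NLRC5 (log2 1.32), the MHC class I transactivator, were higher as well. The changes of STAT2, IRF9, IRF1, IRF2 and NLRC5 were each larger than that of PSMB9, and the difference was not tested.

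Of 10 peptide loading genes, 7 were higher and 1 lower, against 32.7% and 32.8% of all genes. ERAP2, 1 of the 7, was under 1 FPKM in every untreated library (0.888, 0.749 and 0.806) and passed the filter only through the PMA libraries. Without the filter its log2 fold change was 1.27 (edgeR adjusted p = 0.00135). The lower count was 2 with the replicate block (36.7% of all genes), where CANX, a chaperone, was added (log2 −0.32, adjusted p = 0.00217). It was also 2 by DESeq2, without a filter, with the other scalings and by limma. TAP1 changed most (log2 2.13 ± 0.09 SE, edgeR adjusted p = 8.53e-07), against 0.58 for TAP2, its partner chain. B2M, the light chain of MHC class I, had 2235, 1650 and 1535 CPM with PMA, against 576, 498 and 482 CPM in untreated cells (log2 1.80), and TAPBPL (log2 1.53), a peptide editor, was also higher. The chaperone CALR was lower (log2 −0.48). The median log2 fold change of these genes was 0.90, against 0.48 for the inducible proteasome genes and −0.01 for all tested genes.

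**Figure D5:**
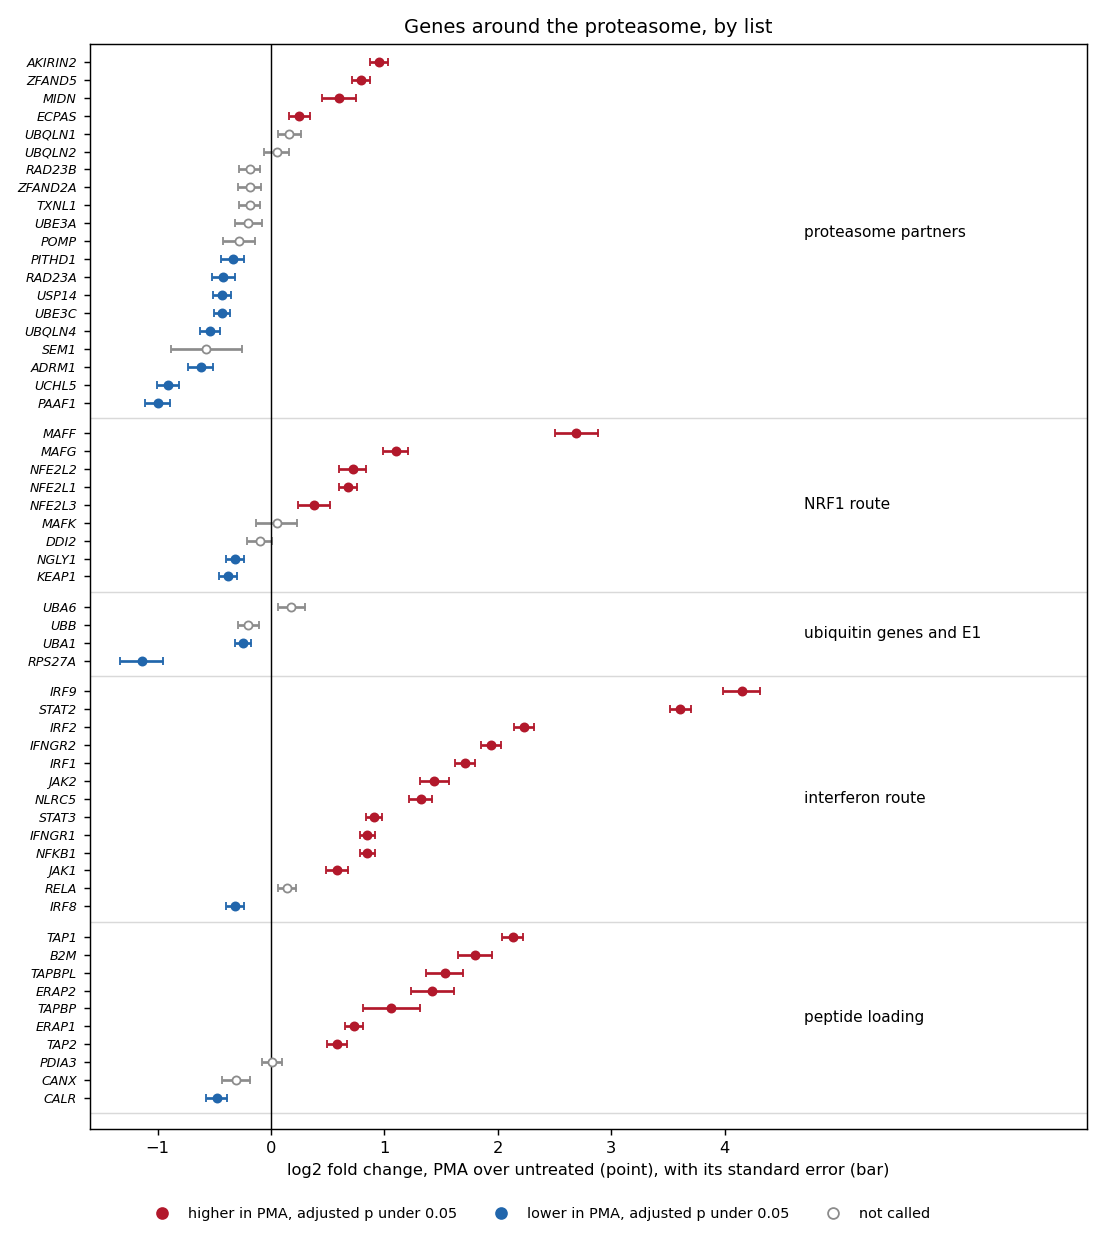
Log2 fold change with its standard error, PMA over untreated, of genes around the proteasome in 5 lists. The interferon route and peptide loading lists lie mostly to the right of 0, and the proteasome partners on both sides.

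Of 10 monocyte and macrophage markers, 6 reached 1 FPKM in a library, and CD14, MPO, CD163 and MRC1 were low, under 1 FPKM in all. The list summed to 432 to 493 FPKM with PMA, against 236 to 245 FPKM in untreated cells. The members did not move alike. CSF1R, the receptor of the macrophage growth factor, averaged 124 FPKM with PMA and 3.79 FPKM in untreated cells and was the largest part of the rise, while CD33 was lower (log2 −0.43, edgeR adjusted p = 0.00179). Without the filter on low values, the granule enzyme MPO was lower (log2 −3.61, edgeR adjusted p = 4.73e-05) and the macrophage receptor CD163 higher (log2 5.59, adjusted p = 0.000968). The lymphoid markers summed to 4.14 to 7.08 FPKM with PMA, against 1.92 to 3.05 FPKM in untreated cells, with NKG7 alone of the 4 in the table reaching 1 FPKM. The fibroblast and epithelial markers summed to 0.988 to 3.16 FPKM with PMA, against 0.664 to 3.88 FPKM in untreated cells. The part of cell state in the proteasome results was not tested.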

How the data were processed

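RNA-seq of 3 PMA-treated and 3 untreated THP-1 libraries was used. The authors deposited 1 table of estimated counts and FPKM values per gene and library, on build hg38 per the submitters' processing notes, which also name DESeq2. The counter, the annotation release and whether strand was used are not stated. Low estimated counts in the deposited table pile up at multiples of 4, so 1 read pair may not equal 1 count. Where a name had several rows, that with most counts was kept, leaving 35042 genes. Genes reaching 1 FPKM in at least 3 libraries were tested with edgeR 4.0.16 (R 4.3.3), TMM factors, the quasi-likelihood test and Benjamini-Hochberg adjustment at 0.05. Standard errors are the log2 fold change over the root of the test statistic. FPKM ratios were compared by exact permutation, two-sided. The script was tested on simulated data.

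Members and gene lists were chosen with earlier results of these data known. Values per library were given for the catalytic subunits, PSME1, PSME2, PSME3 and the 5 other members that fell most, with up to 12 more fold changes of members. From each list the 3 largest called changes each way were named, plus 8 preset genes. A few genes of these lists are not reported here. Genes overlapping a member, and members whose calls were lost, were named after their values were seen.

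Deviations from the group means of libraries with equal numbers correlated at 0.521, 0.175 and 0.138, all over 0.1, so the numbers were taken as pairs, from the data and not the labels. PMA replicate 2 with untreated replicate 3 (0.227) and PMA replicate 3 with untreated replicate 2 (0.29) correlated more than their own pairs. Alternatives used DESeq2 1.42.0, limma 3.58.1 on log2(FPKM + 1) and log2(FPKM + 0.1), other filters and scalings, the replicate block and each library left out. Of 46 members, 40 had a RefSeq promoter window, and PSMA7, PSMB1, PSMB6, PSMB7, PSMD4 and PSMG3 had none.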

Additional observations from a re-analysis of the deposited data

How the results depend on the processing

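In 16 other fits 0 of the 33 called members changed sign and 28 kept their call in each fit that tested them. The count of lower members ran between 26 and 39. The replicate block moved the count of higher members, all of them inducible genes, to 4. Leaving out 1 library gave 26 to 35 lower and 2 to 3 higher members, 26 to 34 lower and 0 higher among those other than the inducible genes, and medians of −0.68 to −0.47 for those and of 0.22 to 0.61 for the inducible genes. The count of lower members rose without PMA replicate 1 and fell without any other library. The count of lower genes over all tested genes did the same. How far the members follow that general change was not tested. Without a filter on low values the median of the other members was −0.74, with that of all genes at 0.20. PSMB8 ranged from −0.01 to 0.34 when 1 library was left out, with the change of sign without PMA replicate 1. The PSMB10/PSMB7 ratio difference changed sign with PMA replicates 2 and 3 averaged (0.05), and leaving out 1 library gave −0.16 to 0.06. For PSMB8/PSMB5 the range was 1.23 to 1.30 and for PSMB9/PSMB6 it was 1.78 to 1.89. The cause was not tested. Leaving out both replicates 1 was chosen after seeing the data. With a mean of at least 5 FPKM, 2433 genes were called higher and 2457 lower, since fewer genes were tested. PSMG4 alone was too low to test in the filtered fit. Without a filter it was lower (log2 −0.82, edgeR adjusted p = 0.0102), and it was called lower by DESeq2 as well.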

Other observations

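The antisense genes of 3 members were higher with PMA while the members were lower. That of PSMB8, PSMB8-AS1, was not called (log2 0.18, edgeR adjusted p = 0.234), and neither was PSMB8 in the unblocked fit. PSMD6-AS2 had 3.29, 5.06 and 4.55 CPM with PMA, against 1.06, 0.71 and 0.544 CPM in untreated cells (log2 2.47, edgeR adjusted p = 0.000206), and PSMD6 had log2 −0.65 (adjusted p = 0.000201). PSMD6-AS2 was low, under 1 FPKM in every untreated library (0.422, 0.283 and 0.21), and passed the filter only through the PMA libraries. Without the filter its log2 fold change was 2.32 (edgeR adjusted p = 0.00102). PSMG3-AS1 had 22.7, 20.3 and 24.4 CPM with PMA, against 12.6, 12.9 and 10.6 CPM in untreated cells (log2 0.90, edgeR adjusted p = 0.000371), and PSMG3 had log2 −1.36. PSMA3-AS1 had 41.2, 55.1 and 51.6 CPM with PMA, against 26.8, 32.2 and 39.7 CPM in untreated cells (log2 0.58, edgeR adjusted p = 0.0139), and PSMA3 had log2 −0.45. PSMD6-AS2 shares 352 exon bases with PSMD6, and without strand their reads cannot be told apart. These genes were chosen after their values were seen.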
